A study of Mus musculus with 4 samples.

Results

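The genes described here belong to the solute carrier families Slc1, Slc3, Slc6, Slc7, Slc36, Slc38 and Slc43, which include amino acid transporters. Among them are also 9 genes of family 6 for monoamines, GABA, taurine, betaine or creatine, and 2 heavy chains. All were chosen by gene name, as the protein-coding genes named for one of these families with a number at the end. This gave 61 members of 51826 genes in the table and left out Slc6a20a and Slc6a20b. RNA sequencing was done on mouse embryonic stem cells (C57BL/6 background) that had been directed towards mesoderm for 3 days, in 2 libraries from Stk40-/- cells, which lack the pseudokinase gene Stk40, and 2 libraries from wild-type (WT) cells. Both genotypes had been moved off feeder cells onto gelatin and kept for 2 days in BMP4 at 10 ng/ml, a growth factor that starts mesoderm formation. For the last day they were kept in 1 uM CHIR99021, an inhibitor of the kinase GSK3 that activates Wnt signalling, with 0.5% DMSO. Serum replacement was at 1% at first and at 15% on the last day. The labels do not say whether the libraries of a genotype came from separate cultures or whether each genotype is 1 clone, so the spread behind each p-value may be technical, and a difference between lines and an effect of Stk40 loss cannot be told apart.

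Amino acid transporters differ in what they carry and in what drives them. Sodium-coupled carriers of families 1, 6 and 38 concentrate amino acids inside the cell, and exchangers of family 7 then trade some of that pool for leucine, arginine or cystine from the medium. Most exchangers of family 7 are light chains that reach the cell surface only when bound to a heavy chain of family 3, whereas the cationic transporters of the same family work without one. Mouse embryonic stem cells depend on amino acid uptake for growth signalling through the kinase mTORC1, and they are known for a high demand for threonine and for a response to proline.

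Values are TPM, which correct for transcript length and sum to the same total in each library, so levels of different genes can be compared within a library. Fold changes are log2 values of Stk40-/- over WT computed after adding 1 to each TPM, so that changes of low genes come out too small. The 15739 genes that averaged 1 TPM or more were tested with limma, with Benjamini-Hochberg adjustment over all of them and a threshold of 0.05. Sequencing depth is unknown from TPM, so no counting interval is given. Stk40 itself had 3.54 and 3.17 TPM in the Stk40-/- libraries, against 28.9 and 39.9 TPM in the WT libraries. Its log2 fold change was -3.01 with a limma adjusted p of 0.139, so limma did not call even this gene. With 2 libraries per group, a lack of calls is therefore not evidence of no difference. Markers of cell states were summed, with no test of the sums. The 14 markers of the primitive streak and nascent mesoderm summed to 514 and 363 TPM in Stk40-/- cells and to 1447 and 796 TPM in WT cells. Most of these sums came from T, with 355 and 217 TPM in Stk40-/- and 1025 and 535 TPM in WT cells. Of the 9 streak and mesoderm markers tested, 8 were lower in both Stk40-/- libraries than in both WT libraries, beside 16.6% of all genes tested. The 8 primed epiblast markers summed to 369 and 386 TPM in Stk40-/- cells, against 211 and 271 TPM in WT cells. Of these 8, 6 were higher in both Stk40-/- libraries, beside 27.5% of all genes tested. For 10 trophoblast markers the sums were 353 and 255 TPM in Stk40-/- and 532 and 380 TPM in WT cells. Most of these sums came from Krt18, with 310 and 221 TPM in Stk40-/- and 477 and 322 TPM in WT cells. Of the 8 trophoblast markers tested, 4 were lower in both Stk40-/- libraries. For 10 markers of feeder fibroblasts the sums were 25.9 and 21.8 TPM in Stk40-/- and 36.5 and 45.1 TPM in WT cells, and 4 of 6 tested were lower in both. Neuroectoderm markers summed to 84.5 and 119 TPM in Stk40-/- and to 72.4 and 81.2 TPM in WT cells, and 3 of 4 tested were higher in both. Nes held most of these sums, and its groups overlapped, with 52.9 and 73.0 TPM in Stk40-/- and 54.3 and 52.0 TPM in WT cells. The sums of pluripotency and extraembryonic endoderm markers overlapped. Of 10 pluripotency markers tested, 2 were higher and 2 lower without overlap, and of 3 extraembryonic endoderm markers tested 1 was lower. Definitive endoderm markers summed to 8.18 and 10.7 TPM in Stk40-/- and to 11.2 and 14.3 TPM in WT cells, and 1 of 4 tested was lower without overlap. The streak marker Mesp1, the neural marker Neurog1, the trophoblast marker Elf5 and the fibroblast marker Lum were below 1 TPM in every library, and Ttr and Apoa1 of the extraembryonic endoderm were at 0. In bulk RNA, fewer cells of a type and less RNA per cell cannot be told apart, and the part of these shifts in the transporter values below was not tested.

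The filter of 1 TPM used the mean over all 4 libraries, so it gave the same set of transporters for both genotypes by construction. Of the 61 members 32 passed the filter of 1 TPM and 29 did not, among them 5 at 0 in all libraries, and the highest single value among those 29 was 1.32 TPM. Family 38 had 9 of 11 members above the filter and family 7 had 8 of 15. Family 6, which includes many transporters of neurons and kidney, had 5 of 19, family 1 had 4 of 7, family 43 had 3 of 3, family 36 had 2 of 4 and family 3 had 1 of 2. All 61 members together summed to 1159 and 1106 TPM in Stk40-/- cells, against 1014 and 1043 TPM in WT cells. The groups did not overlap, with a ratio of means of 1.10, and the exact permutation test gave p = 0.333, the smallest that 2 against 2 libraries allow.

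**Figure D1:**
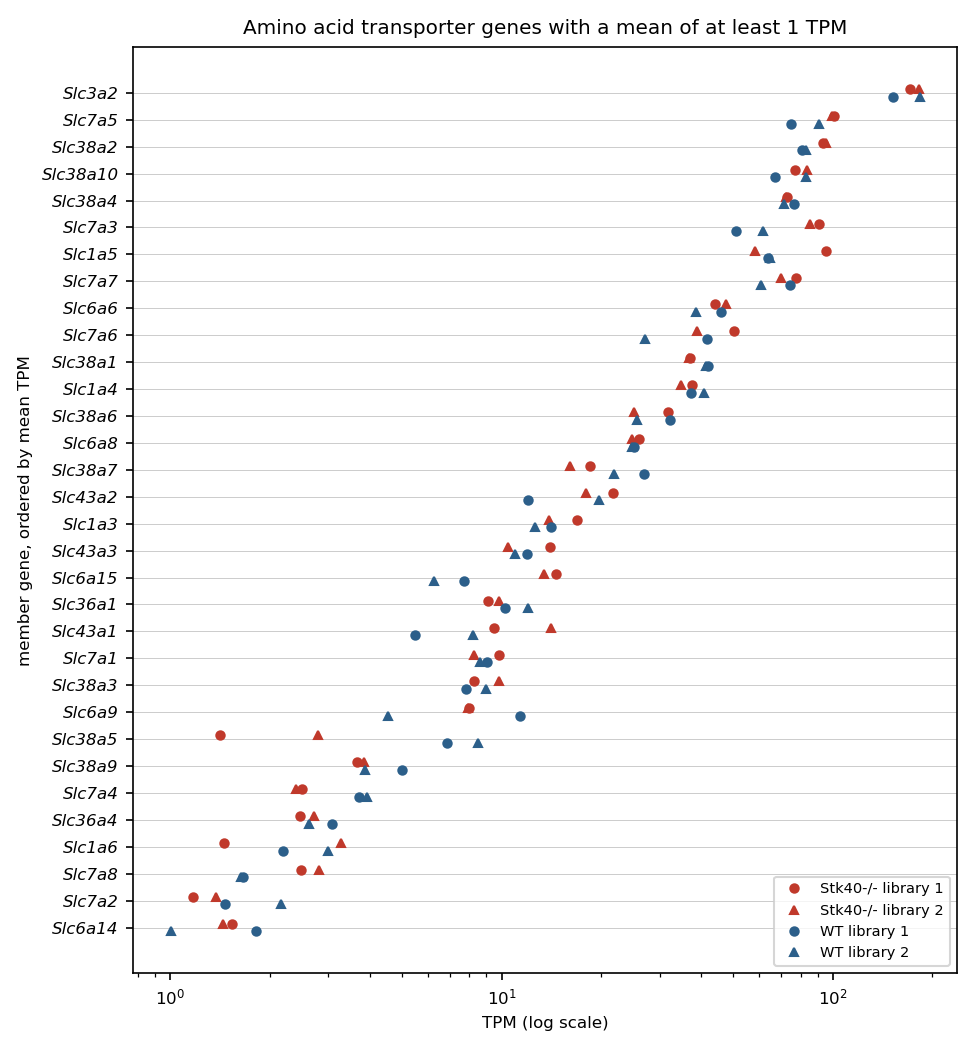
TPM on a log axis of the 32 members averaging 1 TPM or more, ordered by mean. Each row shows the Stk40-/- libraries in red and the WT libraries in blue, with circles for library 1 and triangles for library 2, and Slc3a2 lies at the top with 152 to 183 TPM.

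No member passed the test for a difference between genotypes. limma called 0 of 32 tested members higher and 0 lower, with a smallest adjusted p of 0.312 among them, beside 0% of all genes tested. At an unadjusted limma p under 0.05, 2 members were higher, beside 6.48% of all genes tested, and 2 were lower, beside 4.51%, which together make 4 members beside 11.0%. With libraries centred on their median, the balance over all genes turned to 650 higher and 966 lower at that p, while the members kept 2 in each direction. Both Stk40-/- libraries lay above both WT libraries in 6 members, beside 27.5% of all genes tested, and below them in 7 members, beside 16.6%. Groups thus did not overlap in 40.6% of the tested members, beside 44.0% of all genes tested. Fold changes were positive for 20 of the 32, beside 58.6% of all genes tested. The median log2 fold change of the tested members was 0.08, beside 0.07 for all genes tested and 0.06 for 168 tested genes of other solute carrier families. The fold changes of 18 members lay within 0.2 of 0, and 1 member, Slc38a5, had a log2 fold change of at least 1 in size, which 8.54% of all genes tested had.

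**Figure D2:**
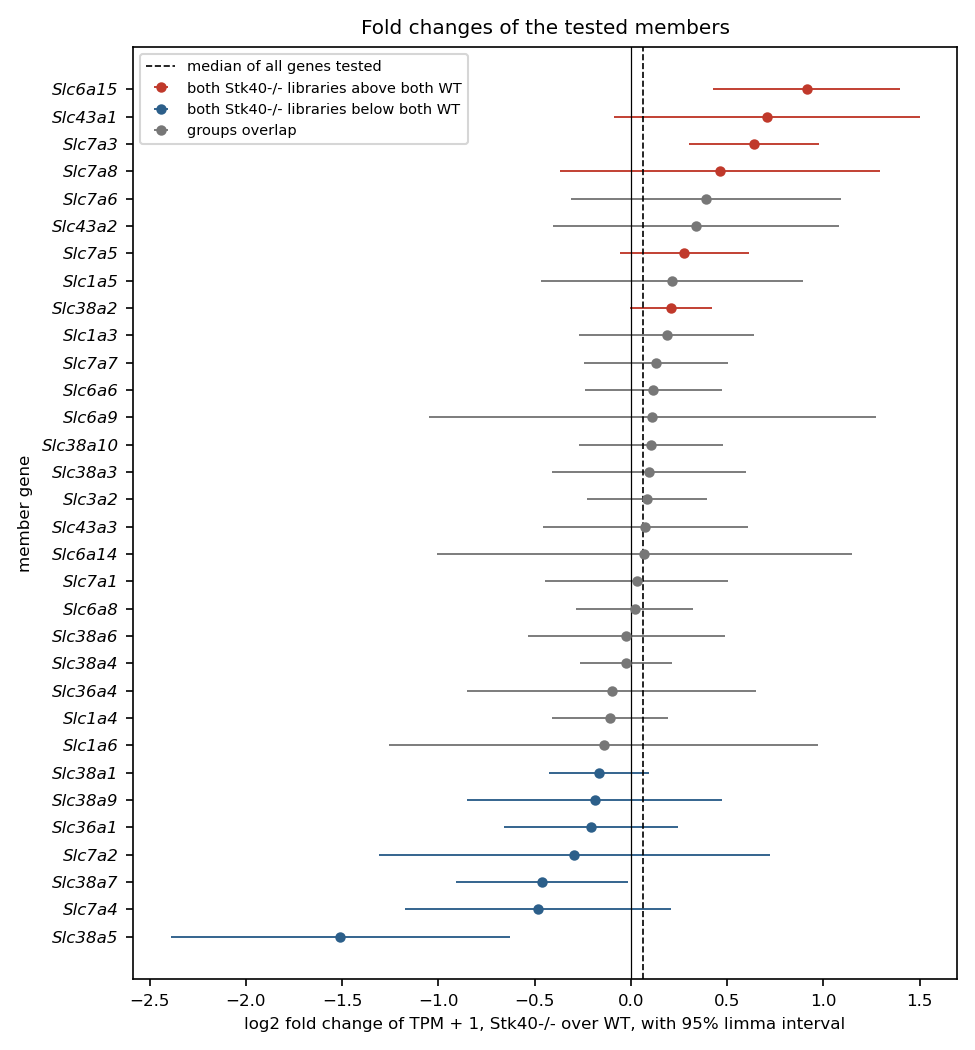
Log2 fold change of TPM + 1 (Stk40-/- over WT) of each tested member, with its 95% limma interval. Red marks the 6 members with both Stk40-/- libraries above both WT libraries, blue the 7 with both below, grey the 19 whose groups overlapped, and the dashed line is the median of all genes tested, 0.07.

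The cationic amino acid transporters, which take up arginine and lysine, were led by Slc7a3 in both genotypes. Slc7a3 (ENSMUSG00000031297.14; GRCm38 chromosome X, 101079210 to 101086020, minus strand), which encodes CAT3, had 90.7 and 85.6 TPM in Stk40-/- cells, against 51.2 and 61.8 TPM in WT cells. The Stk40-/- libraries were thus both above both WT libraries. The ratio of means was 1.56 and the log2 fold change 0.64 (SE 0.13, 95% interval 0.30 to 0.98, limma adjusted p = 0.312). Omitting single libraries gave log2 fold changes between 0.51 and 0.77. Slc7a1, which encodes the widely expressed CAT1, averaged 9.06 ± 1.13 TPM in Stk40-/- cells and 8.82 ± 0.298 TPM in WT cells (SD, n = 2 each), and its groups overlapped. Slc7a3 therefore exceeded Slc7a1 by 9.21 and 10.4 times in the Stk40-/- libraries and by 5.66 and 7.17 times in the WT libraries, on the TPM scale. The 5 cationic members together summed to 104 and 97.9 TPM in Stk40-/- cells and to 65.8 and 76.6 TPM in WT cells, without overlap (exact permutation p = 0.333).

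Slc7a2 and Slc7a4 were the low members of this group and lay on the other side. Slc7a2, which encodes CAT2, had 1.17 and 1.38 TPM in Stk40-/- cells and 1.46 and 2.16 TPM in WT cells, close to the filter of 1 TPM. Slc7a4, whose protein is related to these transporters, had 2.50 and 2.40 TPM in Stk40-/- cells and 3.71 and 3.93 TPM in WT cells (log2 fold change -0.48, limma adjusted p = 0.557). Slc7a4 lies on chromosome 16, where 242 of 328 other protein-coding genes averaging 5 TPM or more had negative fold changes, with a median of -0.19. On all chromosomes that median was 0.07. Both genes were picked for mention after their values were seen, as were Slc7a1 above and, below, Slc7a8, Slc38a9, Slc6a9, Slc6a14, Slc1a3, Slc1a6 and the members of families 36 and 43.

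The heavy chain Slc3a2 was the most abundant member, and its values did not separate the genotypes. Slc3a2 (ENSMUSG00000010095.13; chromosome 19, 8706882 to 8723369), which encodes the CD98 glycoprotein that carries light chains to the surface, had 171 and 183 TPM in Stk40-/- cells and 152 and 183 TPM in WT cells. Its log2 fold change was 0.08, with a 95% limma interval of -0.23 to 0.39, and turned to -0.05 without WT library 1. Its level stood above 94.2% of the tested protein-coding genes. The other heavy chain, Slc3a1, the partner of the kidney light chain Slc7a9, had 0.0778 and 0 TPM in Stk40-/- cells and 0 and 0.146 TPM in WT cells and was not tested.

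Among the light chains that pair with Slc3a2, Slc7a5, Slc7a7 and Slc7a6 held nearly all of the RNA. Slc7a5 (chromosome 8, 121881150 to 121907694), which encodes LAT1, the exchanger for leucine and other large neutral amino acids, had 101 and 99.5 TPM in Stk40-/- cells, against 74.7 and 91.0 TPM in WT cells. The groups did not overlap, and the log2 fold change of 0.28 (SE 0.12, limma adjusted p = 0.503) was 0.14 without WT library 1 and 0.42 without WT library 2. Slc7a7, which encodes a chain that trades arginine and lysine for neutral amino acids with sodium, had 77.4 and 69.8 TPM in Stk40-/- cells and 74.3 and 60.6 TPM in WT cells, so that the groups overlapped. The related Slc7a6 had 50.4 and 39.0 TPM in Stk40-/- cells and 41.6 and 27.1 TPM in WT cells, again with overlap, with a log2 fold change of 0.39. Leaving out WT library 2 gave 0.09, and leaving out WT library 1 gave 0.69. In Slc7a6 and Slc7a7, library 1 was the higher one in each genotype.

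The other light chains were low. Slc7a8, which encodes LAT2, averaged 2.65 ± 0.239 TPM in Stk40-/- cells and 1.64 ± 0.0144 TPM in WT cells, with no overlap (log2 fold change 0.46, limma adjusted p = 0.628). Slc7a11 encodes the exchanger that imports cystine for glutathione synthesis and exports glutamate. It had 0.914 and 1.13 TPM in Stk40-/- cells and 0.911 and 0.852 TPM in WT cells, a mean of 0.952 TPM that placed it just under the filter, so it was not tested. The 6 chains that bind Slc3a2 summed to 232 and 213 TPM in Stk40-/- cells and to 193 and 181 TPM in WT cells, without overlap (exact permutation p = 0.333). Slc3a2 relative to that sum was 0.739 and 0.860 in Stk40-/- cells and 0.789 and 1.01 in WT cells, with overlapping groups.

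Promoter sequences are given for Slc7a11 and Slc7a7 because a window of each holds the same motif and the genes differ in level. The motif is TGATGNAA, a form of the amino acid response element that ATF4 binds with a partner when amino acids run short, searched on both strands. It was found in 3.45% of 32851 RefSeq promoter windows of 250 bases before the start (GRCm38.p6), and in 6.25% of the members' own windows, 4 of 64, which belong to Slc7a11, Slc7a7 and Slc6a21 among the 43 members with an entry. Slc6a21 was at 0 in all libraries. In Slc7a11 (chr3:50443614-50443863, minus strand) a copy on either strand begins 66 and 47 bases before the start. Slc7a7 has 5 entries, and not all of them hold the motif. In the one shown (chr14:54417703-54417952, minus strand), chosen because it has a match, a single copy begins 243 bases before the start. Capitals mark the matches, and each line runs 5′ to 3′ up to the base before the start.
Slc7a11: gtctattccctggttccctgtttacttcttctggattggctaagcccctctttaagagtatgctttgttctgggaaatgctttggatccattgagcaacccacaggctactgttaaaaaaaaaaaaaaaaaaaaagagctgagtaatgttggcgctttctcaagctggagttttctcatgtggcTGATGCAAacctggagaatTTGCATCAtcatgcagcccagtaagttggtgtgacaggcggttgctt
Slc7a7: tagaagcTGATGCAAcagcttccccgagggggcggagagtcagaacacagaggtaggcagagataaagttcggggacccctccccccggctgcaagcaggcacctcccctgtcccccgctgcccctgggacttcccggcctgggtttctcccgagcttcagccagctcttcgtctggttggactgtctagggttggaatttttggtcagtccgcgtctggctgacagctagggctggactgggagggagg
A match describes these letters and is not evidence of binding. With the motif in both windows shown, Slc7a7 averaged 73.6 TPM in Stk40-/- and 67.4 TPM in WT cells. Slc7a11 averaged 1.02 TPM in Stk40-/- and 0.882 TPM in WT cells. These TPM are of whole genes and do not tell the starts of Slc7a7 apart.

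The sodium-coupled neutral transporters of family 38 held the largest summed level of the systems compared and were nearly level between genotypes. The 11 members summed to 344 and 346 TPM in Stk40-/- cells and to 345 and 347 TPM in WT cells, with a ratio of means of 0.997. Within that sum, single members lay on opposite sides. Slc38a2 (chromosome 15, 96687392 to 96699730), which encodes SNAT2, the carrier of alanine, proline and glutamine that cells raise when starved of amino acids, had 93.4 and 95.5 TPM in Stk40-/- cells, against 80.7 and 82.8 TPM in WT cells. The Stk40-/- values lay above both WT values, with a log2 fold change of 0.21 (SE 0.08, 95% interval -0.01 to 0.42, limma adjusted p = 0.462). Slc38a1, which encodes the related glutamine carrier SNAT1, had 37.2 and 36.8 TPM in Stk40-/- cells and 42.1 and 41.3 TPM in WT cells. The Stk40-/- values lay below both WT values, with a log2 fold change of -0.17 (SE 0.10, limma adjusted p = 0.586). Other protein-coding genes averaging 5 TPM or more that begin within 2 Mb of Slc38a2 had a median of 0.17, with 6 of 19 negative. Around Slc38a1 that median was 0.20, with 4 of 17 negative.

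Slc38a1, Slc38a2 and Slc38a4 lie next to each other on chromosome 15, all on the minus strand. The TPM of Slc38a2 relative to Slc38a1 was 2.51 and 2.59 in the Stk40-/- libraries and 1.92 and 2.00 in the WT libraries, without overlap (exact permutation p = 0.333). Slc38a4 (chromosome 15, 96994820 to 97055956), an imprinted gene that is expressed from the paternal allele in mouse, had 72.7 and 72.1 TPM in Stk40-/- cells and 76.5 and 71.2 TPM in WT cells. Its groups overlapped, and the 95% limma interval of its log2 fold change was -0.27 to 0.21. Together the 3 genes summed to 203 and 205 TPM in Stk40-/- cells and to 199 and 195 TPM in WT cells.

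Slc38a5 had the largest fold change of the tested members in either direction, and it lies in a stretch of chromosome X whose genes were low together. Slc38a5 (ENSMUSG00000031170.14; chromosome X, 8271133 to 8280179, plus strand), which encodes the glutamine and glycine carrier SNAT5, had 1.42 and 2.79 TPM in Stk40-/- cells, against 6.86 and 8.46 TPM in WT cells. The groups did not overlap, with a ratio of means of 0.275 and a log2 fold change of -1.51 (SE 0.33, 95% interval -2.39 to -0.63, limma adjusted p = 0.343). Of 34 other protein-coding genes that begin within 2 Mb and average 5 TPM or more, all 34 had negative fold changes, with a median of -1.10, and 31 did not overlap. Their ratios of means had a median of 0.445. The nearest, Ftsj1, had 21.0 and 21.1 TPM in Stk40-/- cells and 46.0 and 48.4 TPM in WT cells. Beyond 2 Mb and within 8 Mb, 5 of 11 genes were negative, with a median of 0.30. Among them were Nudt11 at -1.54 and Nudt10 at -1.38, which lie at -2.22 and -2.10 Mb from Slc38a5. The rest of the 11 lie on the other side, so the end of the low stretch was not seen on the side of Nudt11. A regional difference between the lines and a response of Slc38a5 to Stk40 loss cannot be told apart here.

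**Figure D3:**
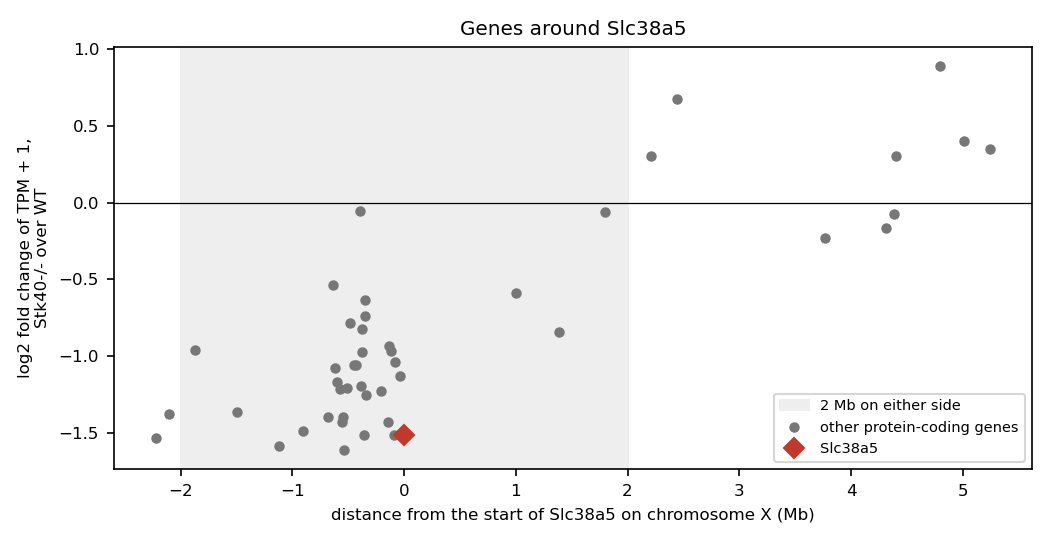
Log2 fold change of TPM + 1 (Stk40-/- over WT) of protein-coding genes averaging 5 TPM or more, by distance in Mb of their start from that of Slc38a5 on chromosome X. Slc38a5 itself is shown although it averaged 4.88 TPM. Slc38a5 is the red diamond at -1.51, and the 34 genes in the shaded 2 Mb on either side all lie below 0.

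The other X-linked members did not lie in such a stretch. Slc7a3 had 19 neighbours by the same rule, of which 8 were negative, with a median log2 fold change of 0.12. Slc6a8, which encodes the creatine transporter, had 43 neighbours with a median of 0.09, and its own level was 26.0 and 24.7 TPM in Stk40-/- cells and 25.2 and 24.8 TPM in WT cells. Over the 30 other tested members with neighbours, the neighbours' median ran from -0.20 for Slc7a4 to 0.20 for Slc38a1.

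Slc38a7 was the other member of family 38 that was low at an unadjusted limma p under 0.05. Slc38a7 (ENSMUSG00000036534.6; chromosome 8, 95835920 to 95853539), which encodes SNAT7, a carrier that exports glutamine from lysosomes, had 18.5 and 16.1 TPM in Stk40-/- cells, against 26.9 and 21.9 TPM in WT cells. The Stk40-/- values lay below both WT values, with a log2 fold change of -0.46 (SE 0.17, 95% interval -0.91 to -0.02, limma adjusted p = 0.447). Its 28 neighbours had a median log2 fold change of 0.02. Its promoter is shown because the series concerns c-JUN, a subunit of the AP-1 factor, and because the window matches a loose form of the AP-1 motif. This palindromic form, TGANTCA, allows any base at its centre and was searched on both strands. It was found in 6.75% of all promoter windows and in 9 of the 64 member windows, or 14.1%, which belong to 8 members. The match, in capitals, has T at its centre, where the usual AP-1 site has C or G. It begins 45 bases before the RefSeq start (chr8:95853492-95853741, minus strand), inside the GENCODE gene model, which begins 48 bases before that start.
Slc38a7: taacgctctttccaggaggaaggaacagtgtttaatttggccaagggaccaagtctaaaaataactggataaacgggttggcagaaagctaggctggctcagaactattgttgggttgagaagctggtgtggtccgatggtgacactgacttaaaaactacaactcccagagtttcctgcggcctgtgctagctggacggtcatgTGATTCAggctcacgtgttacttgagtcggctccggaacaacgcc
As above, a match does not show binding. Of the 7 other members with this motif, Slc38a10 and Slc7a1 were those above 5 TPM, and the groups of both overlapped. Slc38a10 had 77.1 and 83.6 TPM in Stk40-/- cells and 66.8 and 83.1 TPM in WT cells. Slc38a9, which encodes a lysosomal arginine sensor upstream of mTORC1, averaged 3.75 ± 0.144 TPM in Stk40-/- cells and 4.44 ± 0.797 TPM in WT cells (SD, n = 2 each; log2 fold change -0.19, limma adjusted p = 0.780), and its groups were separated only by the small gap between 3.85 TPM in Stk40-/- library 2 and 3.87 TPM in WT library 2. Slc38a6 had 31.9 and 25.2 TPM in Stk40-/- cells and 32.4 and 25.6 TPM in WT cells, so that the difference between libraries of a genotype exceeded that between genotypes.

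In family 6, Slc6a15 had the largest positive fold change of the tested members. Slc6a15 (ENSMUSG00000019894.14; chromosome 10, 103367783 to 103419377, plus strand) encodes B0AT2, a sodium-coupled carrier of branched-chain amino acids and proline known mainly from brain. It had 14.6 and 13.4 TPM in Stk40-/- cells, against 7.73 and 6.27 TPM in WT cells. The groups did not overlap, with a ratio of means of 2.00 and a log2 fold change of 0.91 (SE 0.18, 95% interval 0.43 to 1.40, limma adjusted p = 0.312). With 1 library left out it ranged from 0.78 to 1.04. No protein-coding gene averaging 5 TPM or more began within 2 Mb of it. The taurine transporter gene Slc6a6 was the most abundant of the family, with 44.0 and 47.7 TPM in Stk40-/- cells and 46.1 and 38.6 TPM in WT cells, and its groups overlapped. Slc6a9, which encodes the glycine transporter GLYT1, had nearly equal means of 7.95 TPM in Stk40-/- cells and 7.96 TPM in WT cells, but the WT libraries lay apart at 11.4 and 4.54 TPM. Slc6a14 averaged 1.49 TPM in Stk40-/- and 1.41 TPM in WT cells. The 14 other members of the family, which include the transporters of serotonin, dopamine and GABA, were not tested.

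The exchangers of neutral amino acids in family 1 overlapped between the genotypes. Slc1a5 (chromosome 7, 16781340 to 16798274), which encodes ASCT2, a major glutamine carrier of growing cells, had 95.5 and 58.4 TPM in Stk40-/- cells and 63.8 and 64.9 TPM in WT cells. Stk40-/- library 1 stood above the other 3 libraries and Stk40-/- library 2 below them, and the log2 fold change of 0.21 was -0.14 without Stk40-/- library 1. Slc1a4, which encodes ASCT1 for alanine, serine and cysteine, had 37.6 and 34.9 TPM in Stk40-/- cells and 37.4 and 40.8 TPM in WT cells. Of the glutamate transporters, Slc1a3 averaged 15.4 ± 2.15 TPM in Stk40-/- cells and 13.4 ± 1.08 TPM in WT cells (SD, n = 2 each), and Slc1a6 averaged 2.37 and 2.60 TPM in Stk40-/- and WT cells, both with overlap. Slc1a1, Slc1a2 and Slc1a7 were below the filter.

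Family 43 carries large neutral amino acids and nucleobases by facilitated transport, and all 3 of its tested members had positive fold changes. Slc43a1, which encodes LAT3, had 9.50 and 14.1 TPM in Stk40-/- cells, against 5.47 and 8.20 TPM in WT cells. Both Stk40-/- libraries were higher, with a ratio of means of 1.72 (log2 fold change 0.70, SE 0.29, limma adjusted p = 0.487). Slc43a2, which encodes LAT4, averaged 19.9 ± 2.66 TPM in Stk40-/- cells and 15.9 ± 5.47 TPM in WT cells, with overlap, as did Slc43a3, which encodes a purine nucleobase transporter (12.2 ± 2.49 TPM in Stk40-/- and 11.5 ± 0.663 TPM in WT cells). Family 36, proton-coupled carriers found on lysosomes and at the cell surface, had 2 tested members, both with negative fold changes. Slc36a1 had 9.12 and 9.84 TPM in Stk40-/- cells and 10.3 and 12.0 TPM in WT cells, with both Stk40-/- libraries lower (log2 fold change -0.21, limma adjusted p = 0.639). Slc36a4 averaged 2.59 TPM in Stk40-/- and 2.85 TPM in WT cells, with overlap.

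**Figure D4:**
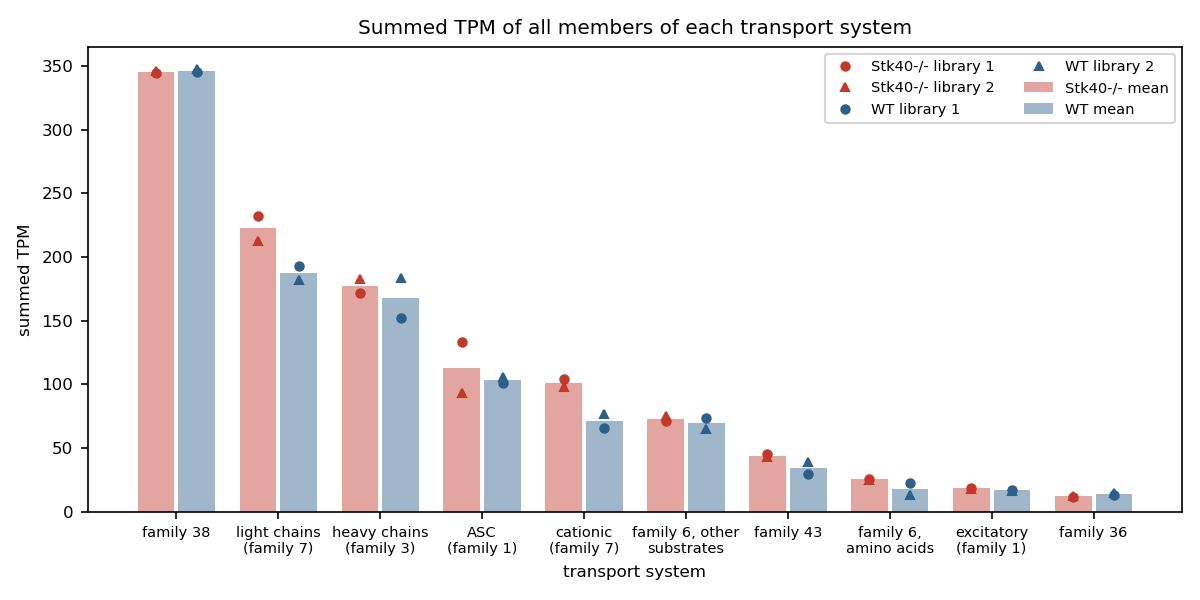
Summed TPM of all members of each transport system in each library, with bars for the mean of 2 libraries, red for Stk40-/- and blue for WT. The summed levels of family 38 are 344 to 347 TPM in all 4 libraries, and the cationic group is at 104 and 97.9 TPM in Stk40-/- and at 65.8 and 76.6 TPM in WT cells.

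Genes that sense, respond to and use the transported amino acids also had no call in limma, with 0 higher and 0 lower in each of the 6 lists below, which were chosen with earlier results of these data known. Their smallest adjusted p was 0.334. Counts without overlap stand beside 27.5% higher and 16.6% lower, or 44.0% either way, of all genes tested, and nothing particular to a list is read from them. In the amino acid response, 7 of 18 genes were higher without overlap and 2 lower, together 9 of the 18, with a median log2 fold change of 0.15. Ddit4, an inhibitor of mTORC1 that many stresses induce, had 363 and 300.3 TPM in Stk40-/- cells and 231 and 203 TPM in WT cells, and Stc2 averaged 13.2 and 8.12 TPM in Stk40-/- and WT cells. Eif2s1 averaged 146 TPM in Stk40-/- and 121 TPM in WT cells, and Atf3 averaged 18.7 TPM in Stk40-/- and 23.5 TPM in WT cells. Among 32 genes that sense amino acids for mTORC1, 10 were higher and 12 lower without overlap, 68.8% in all, with a median of 0.01. The Ragulator genes Lamtor5 (88.1 and 95.1 TPM in Stk40-/-, 116 and 124 TPM in WT) and Lamtor4 (24.0 and 27.5 TPM in Stk40-/-, 39.5 and 34.4 TPM in WT) were lower, and the Rag GTPase gene Rragb (35.5 and 32.5 TPM in Stk40-/-, 19.0 and 25.3 TPM in WT) was higher, each at an unadjusted limma p under 0.05.

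Of 11 genes for serine, glycine and proline synthesis, 5 were higher without overlap and 0 lower, 45.5% in all, with a median log2 fold change of 0.12. Pycr1, which makes proline, had 35.2 and 29.6 TPM in Stk40-/- cells and 21.1 and 22.4 TPM in WT cells. Of 14 genes for glutamine, cysteine and glutathione metabolism, 8 were higher and 2 lower without overlap, 71.4% in all, with a median of 0.17. Gclc, the catalytic subunit that starts glutathione synthesis, averaged 65.5 ± 6.63 TPM in Stk40-/- cells and 48.9 ± 5.61 TPM in WT cells (SD, n = 2 each). Glud1, the next gene of that list by p, was lower, at 138 ± 11.3 TPM in Stk40-/- cells and 167 ± 8.40 TPM in WT cells. Of 13 tested genes for threonine, methionine and polyamine metabolism, 4 were higher and 4 lower without overlap, 61.5% in all. Odc1, the first enzyme of polyamine synthesis, had the smallest p of that list and averaged 687 ± 17.9 TPM in Stk40-/- cells and 596 ± 16.3 TPM in WT cells (SD, n = 2 each; log2 fold change 0.21, limma adjusted p = 0.401). Tdh, the threonine dehydrogenase on which mouse embryonic stem cells rely, had 6.49 and 9.60 TPM in Stk40-/- cells and 13.9 and 19.0 TPM in WT cells. The arginase gene Arg1 had 8.15 and 4.45 TPM in Stk40-/- cells and 39.9 and 13.6 TPM in WT cells, where library 1 set most of the mean. Of 14 tested amino acid carriers of other families, 1 was higher and 5 were lower without overlap, 42.9% in all, among them the lysosomal cystine exporter gene Ctns, which averaged 29.4 ± 2.47 TPM in Stk40-/- cells and 37.6 ± 1.55 TPM in WT cells (SD, n = 2 each).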

How the data were processed

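TPM values from 4 libraries were used, 2 from Stk40-/- and 2 from WT cells, grouped by the sample titles. The deposited table held TPM per gene, per the file headers. Per the submitters' processing notes, the tools were CASAVA 1.7 and Salmon 0.8.2. The notes also list a human build although the gene IDs are mouse IDs, and the annotation used is therefore unclear. Per the labels, libraries were read on one of a pair of instruments at different read lengths, with no record of which, so no batch term could be fitted. TPM keeps no depth, and a rise in abundant RNAs lowers other genes.

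Genes averaging 1 TPM or more were tested after log2(TPM + 1) transformation, in R 4.3.3 with limma 3.58.1 (empirical Bayes with intensity trend, no replicate block), and the procedure was tested on simulated data. Sums and ratios were compared by two-sided exact permutation tests. Positions come from GENCODE vM21 by Ensembl ID without version, where 61 of 61 members matched. Promoters of 43 members are from RefSeq (GRCm38.p6). Values per library are given for members with a mean of at least 20 TPM or an unadjusted p under 0.05 and for Slc3a1, Slc3a2, Slc7a3, Slc7a5, Slc7a11, Slc1a5 and Slc38a2, and for up to 4 genes of each list by smallest p, besides the members that the report says were picked after their values were seen. The members, the lists and this rule were chosen with earlier results of these data known. The alternatives were pseudocounts, filters, scalings, moderation, a replicate block and leaving out each library. The number of unused per-sample columns was 0.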

Additional observations from a re-analysis of the deposited data

How the results depend on the processing

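limma called 0 genes and 0 members in each direction in all 12 alternatives. At an unadjusted p under 0.05 its counts moved, between 542 and 1282 genes higher (1020 as reported), between 443 and 983 lower (710 as reported), and between 0 and 4 members higher and 0 and 2 lower (2 each as reported). Centred libraries gave 650 genes higher and 966 lower, which turned the balance. Without Stk40-/- library 1, limma had 542 genes higher and 443 lower, with 0 members higher and 1 lower. With the replicate number as a block, limma called 0 genes, with 1282 higher and 836 lower at an unadjusted p under 0.05, and 4 members higher and 2 lower, and the unadjusted p of Slc7a6 was 0.0383, against 0.202 without the block. The replicate differences of the genotypes correlated at 0.09 over all genes tested and at 0.36 over the 32 members. The labels do not say that a number marks a shared culture or day, and with only 2 pairs it was not treated as a pairing.

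Depth is unknown from TPM, and members near 1 TPM are the least certain. The median log2 fold change of the members, 0.08, was 0.0253 with every gene above 0 TPM tested and 0.0146 with libraries centred on their median, and ran from 0.0052 to 0.0778 with 1 library left out. The 6 members higher without overlap became 10 with every gene above 0 TPM, and the 7 lower became 3 at a mean of at least 5 TPM, where Slc38a5 was not tested. With 1 library left out there were 10 to 14 higher and 9 to 13 lower, since fewer libraries have to be separated. Adjusted p values of Slc7a3, Slc6a15 and Slc38a5 ran from 0.292 to 0.738 over the alternatives, those of Slc38a7 from 0.339 to 0.738.

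The log2 fold change of Slc6a8 turned to -0.0441 with centred libraries. With 1 library left out at a time, fold changes that turned their sign ran from -0.14 to 0.56 for Slc1a5, -0.0488 to 0.26 for Slc38a10, -0.0778 to 0.0237 for Slc38a4, -0.19 to 0.14 for Slc38a6, -0.0478 to 0.21 for Slc3a2, -0.009 to 0.24 for Slc6a6, -0.0149 to 0.0559 for Slc6a8 and -0.0145 to 0.28 for Slc7a7. Differences in summed TPM (Stk40-/- minus WT) that turned ran from -10.1 to 29.6 for the neutral exchangers of family 1, -6.01 to 24.6 for heavy chains, -0.807 to 8.04 for transporters of family 6 with other substrates and -2.16 to 0.361 for family 38. The cause was not tested.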
